A study of Mus musculus with 7 samples.

Results

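The 4 Apc knockout libraries of the study were compared with its 3 wildtype libraries, with both harvest days in 1 knockout group, to find the genes that moved the same way on both days. All 7 libraries of the series entered, and members were the genes with at least 1 FPKM (a unit of transcript abundance scaled to transcript length and library) in at least 2 libraries, which 11735 of 24908 gene symbols met. RNA was from mouse intestinal mesenchyme, sorted for low Pdgfra and for CD81. Knockout mice carried Apc flox/flox alleles deleted by Villin-CreERT2, a tamoxifen-inducible recombinase expressed from a promoter of intestinal epithelial cells, so the sorted stromal cells are neighbours of the mutant cells and not the mutant cells themselves. Knockout libraries came from 4 days (n = 2) and 6 days (n = 2) after inactivation, and the labels call the 3 other libraries wildtype control. The genotype of the controls at the floxed alleles and the transgene, their treatment, and the age and sex of the mice are not given in the sources used here. Nothing in the labels says that the libraries are from separate animals, so the p-values below measure only the spread between these samples.

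Pdgfra-low CD81+ cells, also called trophocytes, lie under the crypts and supply the intestinal stem cells with the BMP antagonist Gremlin 1, R-spondins and WNT ligands. Apc is the scaffold of the complex that destroys beta-catenin, and its loss in the epithelium switches on WNT target genes there and turns crypts into hyperproliferative tissue within days. Fibroblasts next to damaged or transformed epithelium are known for programmes set by cytokines of the interleukin-6 family through gp130 and STAT3, by glucocorticoids, by TGF-beta and by interferons, and the results below are ordered by these programmes.

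Values are given first for the day 4 set control, the first day 6 set control and the second day 6 set control, in that order. Values for replicates 1 and 2 of each day follow. A set is the day in the column headers, 4 or 6, read here as the harvest. The headers name no harvest or batch, and that of 1 knockout, placed in the day 6 set, gives no day. The trophocyte genes were present in every library. Rspo3, an R-spondin, had 24.5, 24.7 and 26.2 FPKM in the controls, 17.3 and 29.1 at day 4 and 26.6 and 29.4 at day 6, and the groups overlapped. Grem1, which encodes Gremlin 1, had 178, 195 and 164 FPKM in the controls, 143 and 101 at day 4 and 501 and 267 at day 6, below the controls on day 4 and above them on day 6. Apc itself had 2.63, 2.69 and 2.46 FPKM in the controls, 2.22 and 2.54 at day 4 and 2.73 and 3.29 at day 6, and since the deletion is epithelial this does not check the genotype. Pdgfra, one of the sort markers, lay above the controls in all 4 knockout libraries, with 61.3, 54.4 and 59.9 FPKM in the controls, 76.5 and 134 at day 4 and 111 and 89.2 at day 6, and the log2 difference of 0.77 ± 0.20 did not pass (limma, adjusted p = 0.218). Here and below, ± gives the standard error (SE) of a knockout minus wildtype log2 difference over 4 and 3 libraries. Cd81, the other sort marker, had 109.8, 149 and 142 FPKM in the controls, 94.8 and 32.4 at day 4 and 169 and 105 at day 6, and was lowest in day 4 knockout replicate 2. Cd34, a surface marker of these cells, lay below the controls in all 4 knockouts, with 454, 506 and 509 FPKM in the controls, 220.2 and 169.5 at day 4 and 298 and 353 at day 6, a difference of -0.96 ± 0.26 (adjusted p = 0.225). Wnt2b, a WNT ligand, lay below as well and is described further down. Of 10 trophocyte markers tested, 1 lay above, 2 below and 0 passed, with a median of -0.02.

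The libraries also differed in ways other than the genotype label. Total FPKM per library ran from 351323 to 427369, and no file gives read counts or depth. Gapdh had 193, 91.4 and 77.2 FPKM in the controls, 214 and 277 at day 4 and 66.5 and 77.2 at day 6, and thus split by harvest set and not by genotype. Epithelial marker genes summed to 9.30, 11.9 and 7.20 FPKM in the controls, 15.7 and 10.96 at day 4 and 36.6 and 12.7 at day 6. Among the knockouts, only day 4 replicate 2 lay within the range of the controls. These sums thus leaned with genotype, and their part in the results was not tested. Macrophage and dendritic cell markers summed to 59.5 FPKM in day 4 knockout replicate 2, to 1514 FPKM in day 4 knockout replicate 1 and to 586.5 to 971 FPKM in the other 5 libraries. B and plasma cell markers summed to 3103 FPKM in day 4 knockout replicate 1 and to 426 to 816 FPKM in the other 6. A list of 5 sex-linked genes, 4 of them on the Y chromosome, summed to 3.48, 75.8 and 3.25 FPKM in the controls, 4.43 and 6.99 at day 4 and 71.4 and 21.97 at day 6. The 4 Y-linked genes were listed at 0 in the 3 libraries of the day 4 set, so the sex of the source differed between libraries and its part in the results was not tested. Day 6 knockout replicate 2, whose column header gives no day and which was assigned to day 6 as the 1 knockout sample not otherwise matched, lay nearest to the controls for many of the genes below. Because the RNA is from bulk sorted cells, fewer cells of a type and less RNA per cell cannot be told apart for any gene.

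When the genotypes were compared across all genes, 13 rose in the knockout libraries (0.111% of the genes tested) and 0 fell (0%) by limma at an adjusted p under 0.05. At an unadjusted p under 0.05, 584 genes were higher (4.98%) and 838 lower (7.14%), which is 1422 genes (12.1%). The number that passed depended on single libraries. Without any 1 of them, between 0 and 17 genes rose and between 0 and 13 fell. Leaving out the second day 6 set control gave 0 that rose, the day 4 set control 1 and the first day 6 set control 4. Leaving out day 6 knockout replicate 1 gave 2, either day 4 knockout 6, and day 6 knockout replicate 2 gave 17 that rose and 13 that fell. With the harvest set as a block, 28 rose (0.239%) and 5 fell (0.0426%), and all 13 genes were among the 28.

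A count that needs no model asked which genes had all 4 knockout libraries on 1 side of all 3 controls. There were 624 such genes above (5.32%) and 772 below (6.58%). Of these, 180 had a mean at least 0.58 log2 units above the control mean on each day (1.53%) and 177 at least 0.58 below (1.51%), where 0.58 is a change of 1.5-fold. These genes are called shared in what follows, and since the rule chose them by their direction, the direction itself is not a result. Just inside the limit were Lyve1 at 0.58 and Pxylp1 at -0.58, and just outside it Smn1 and Isg20, also at 0.58 and -0.58 after rounding. Counts of list members below are to be read against the shares of all genes, 5.32% above and 6.58% below. Both days are compared with the same 3 controls, so the 2 differences of a gene share their error. Day 6 did not differ from day 4 for any gene by limma (0 of 11735, adjusted p under 0.05), although 1345 (11.5%) had an unadjusted p under 0.05.

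**Figure D1:**
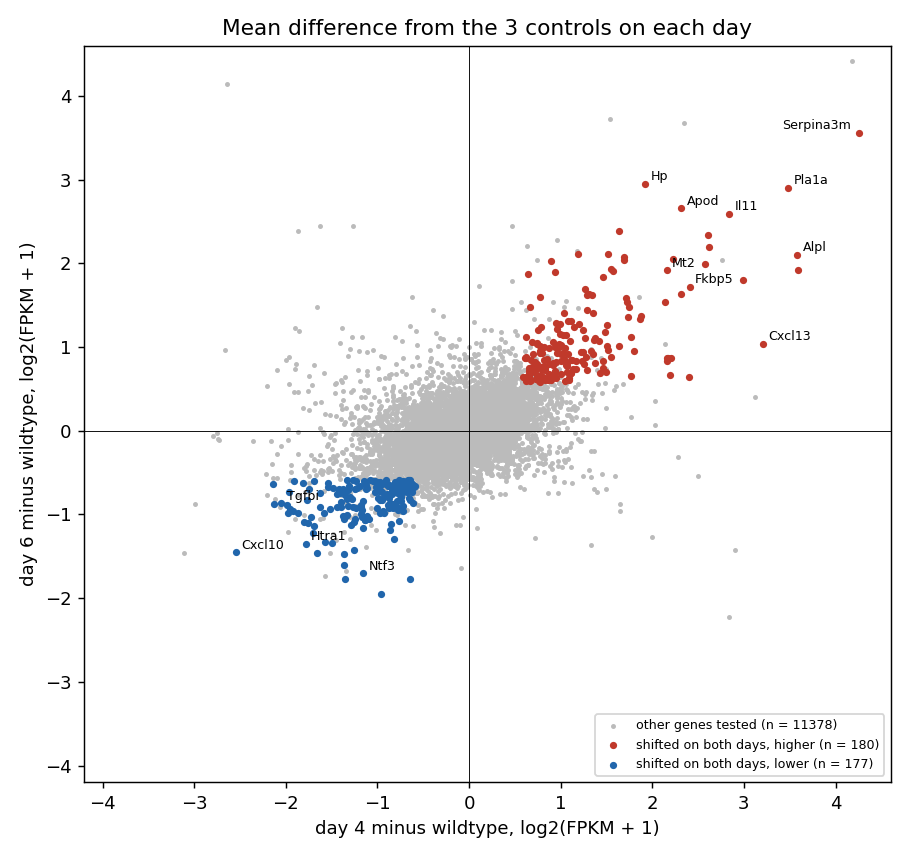
Mean log2(FPKM + 1) difference from the 3 wildtype controls at day 4 (horizontal axis) and day 6 (vertical axis), 1 point per gene tested (2 genes lie outside the axes). Red marks the 180 genes with all knockouts above all controls and both day means at least 0.58 above the control mean, and blue the 177 in the opposite direction, and red points reach further from 0 than blue ones.

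The 2 directions were not carried by the 4 libraries alike. Day 6 knockout replicate 2 was the knockout library nearest to the controls for 144 of the 177 lower genes (81.4%) and for 79 of the 180 higher genes (43.9%). Without that library, 426 genes met the lower rule and 214 the higher rule. Without day 6 knockout replicate 1, 62 met the lower rule and 166 the higher, and without the day 4 set control the counts were 376 and 249. The lower set therefore changed in size with single libraries by more than 1.5 times, and the higher set did not.

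The 13 genes that rose were Apod, Serpina3m, Pla1a, Map3k6, Cyp1b1, Cpne7, Spp1, Serpina3n, Il11, 6030408B16Rik, Spidr, Klhl2 and Hspb7. Apod, a lipocalin that carries small hydrophobic molecules, had the smallest adjusted p. It stood at 7.97, 6.203 and 5.04 FPKM in the controls, 40.9 and 30.6 at day 4 and 43.2 and 47.2 at day 6, a log2 difference of 2.49 ± 0.19 (SE, adjusted p = 0.00831). The groups were far apart, and the 4 knockout values were close to each other. Spp1, which encodes the secreted phosphoprotein osteopontin, was near 0 in controls, with 0.0856, 0 and 0.0464 FPKM in the controls, 1.64 and 3.32 at day 4 and 3.41 and 3.38 at day 6, and rose by 1.88 ± 0.22 (adjusted p = 0.0246). Spidr, a scaffold of DNA repair, and Klhl2, an actin-binding adaptor of a ubiquitin ligase, also rose. Spidr had 10.6, 10.7 and 9.32 FPKM in the controls, 26.7 and 24.5 at day 4 and 20.5 and 20.5 at day 6, and its log2 difference was 1.10 ± 0.14 (adjusted p = 0.0413). Klhl2 had 4.11, 6.79 and 5.65 FPKM in the controls, 18.6 and 16.02 at day 4 and 15.6 and 13.3 at day 6, a difference of 1.38 ± 0.18 (adjusted p = 0.0413). Against the controls of the same harvest set, the difference of Klhl2 was 1.84 in the day 4 set and 1.09 in the day 6 set.

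The largest differences among the 13 were in Serpina3m and Pla1a. Serpina3m had 1.73, 2.85 and 0.926 FPKM in the controls, 74.3 and 34.8 at day 4 and 31.4 and 30.8 at day 6, a difference of 3.90 ± 0.34 (adjusted p = 0.0113). Pla1a, a phospholipase that acts on phosphatidylserine, had 1.17, 0.818 and 0.842 FPKM in the controls, 12.8 and 33.00 at day 4 and 13.4 and 13.5 at day 6, a difference of 3.19 ± 0.31 (adjusted p = 0.0174). Each had 1 day 4 library far above the other knockouts, and their lowest knockout values were still above every control. Cpne7, a calcium-dependent membrane-binding protein, had 0.3297, 1.48 and 0.779 FPKM in the controls, 8.22 and 12.4 at day 4 and 9.02 and 5.87 at day 6, a difference of 2.41 ± 0.27 (adjusted p = 0.0246). When each of the 7 libraries was left out in turn, Apod passed in 6 of the fits, Serpina3m in 5, Map3k6 in 4 and Pla1a in 3. 6030408B16Rik, Il11 and Spp1 passed in 2, and Cpne7, Cyp1b1, Klhl2, Serpina3n and Spidr in 1. Hspb7 passed in 0, with adjusted p-values from 0.0506 to 0.252. Without the second day 6 set control none of the 13 passed, and the adjusted p of Apod was 0.0792.

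Just short of the threshold were Tspan4, a tetraspanin, Mmd, Lmcd1, a LIM domain cofactor, and Acsl4, all with an adjusted p of 0.0508. Tspan4 had 44.6, 48.9 and 37.4 FPKM in the controls, 90.1 and 139.7 at day 4 and 132 and 103 at day 6, and Lmcd1 had 6.18, 4.55 and 5.72 FPKM in the controls, 10.8 and 14.8 at day 4 and 16.1 and 14.1 at day 6. In both, the groups did not overlap. All 4 passed with the harvest set as a block. Rpl26, a ribosomal protein gene, had the same adjusted p, but its controls were at or below 0.0003 FPKM and its knockouts between 0.94 and 2.06 FPKM, levels low for a gene of that kind, so the difference is given with no reading.

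**Figure D2:**
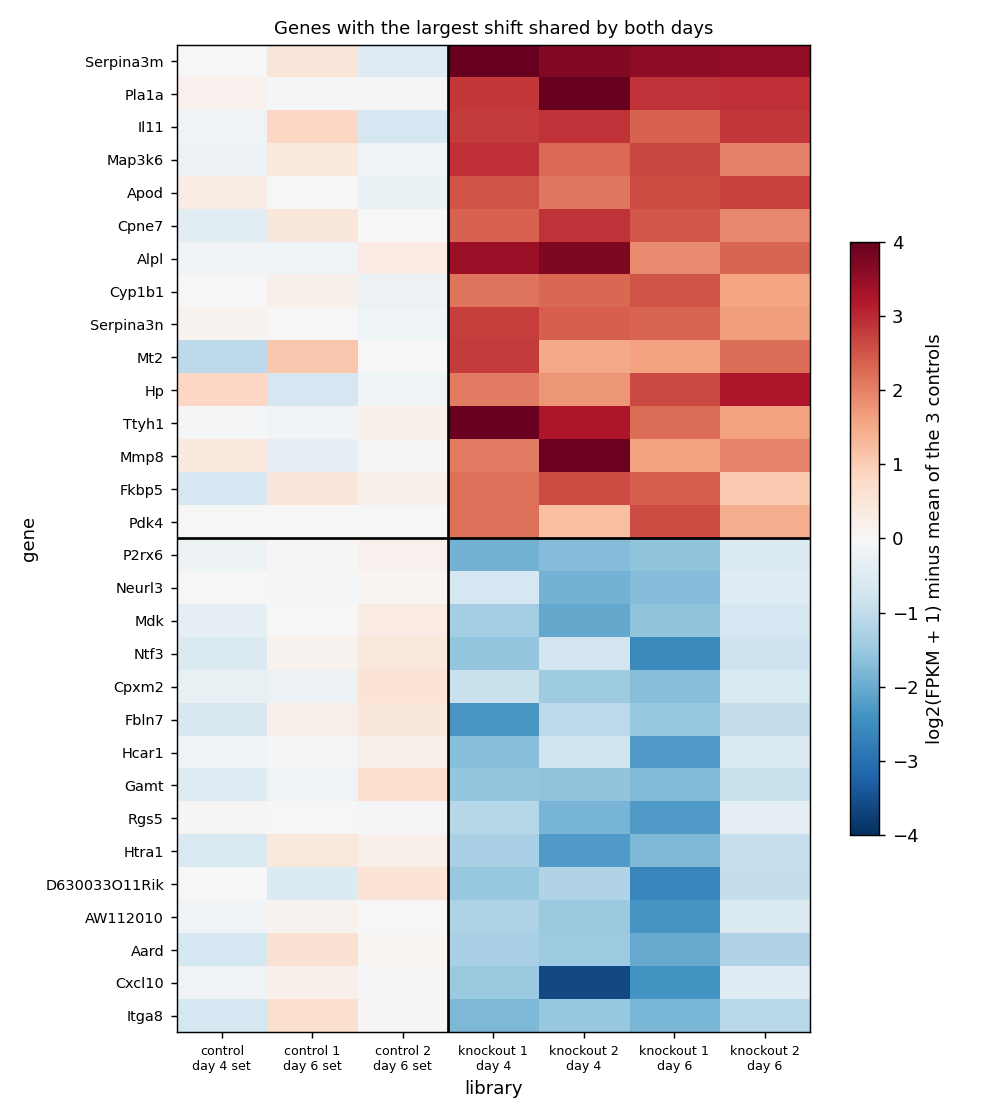
Difference in log2(FPKM + 1) from the mean of the 3 controls (color, blue lower and red higher) in each library (columns) for the 15 genes with the largest shift shared by both days in each direction (rows). All knockout cells above the black line are red and all below it are blue, and the palest blue column is day 6 knockout replicate 2.

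Acute-phase genes encode plasma and tissue proteins, among them protease inhibitors and metal carriers, that cells release during inflammation. Of 17 tested members of the SERPINA3 and acute-phase list, 2 rose, 6 lay above all controls (all 6 of them shared) and 0 lay below, with a median log2 difference of 1.13 where that of all genes was -0.03. The 2 that rose were Serpina3m and Serpina3n, inhibitors of serine proteases. Serpina3n had 279, 254 and 224 FPKM in the controls, 1703 and 1319 at day 4 and 1253 and 804 at day 6, a difference of 2.28 ± 0.26 (adjusted p = 0.0246). The other shared members did not pass. Hp, which encodes the hemoglobin scavenger haptoglobin, had 2.86, 0.346 and 0.918 FPKM in the controls, 8.03 and 6.35 at day 4 and 12.5 and 19.4 at day 6, with differences of 1.92 at day 4 and 2.95 at day 6. Within the harvest sets, the difference of Hp was 1.08 in the day 4 set and 3.37 in the day 6 set. Lrg1, a secreted leucine-rich glycoprotein, had 2.32, 2.504 and 0.943 FPKM in the controls, 10.1 and 6.88 at day 4 and 7.69 and 6.797 at day 6, and its log2 difference of 1.63 ± 0.24 had an adjusted p of 0.0534, or 0.0494 with the set as a block.

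The SERPINA3 genes lie in a cluster of near-identical copies, and how reads were divided among them is not given in the sources used here, so values of single copies are uncertain. Serpina3c had 2.55, 2.37 and 1.07 FPKM in the controls, 16.1 and 4.800 at day 4 and 3.02 and 4.28 at day 6, and Serpina3k had 0.0336, 0.413 and 0.296 FPKM in the controls, 1.27 and 0.645 at day 4 and 3.79 and 3.32 at day 6. Serpina3c was highest on day 4 and Serpina3k on day 6. In other copies of the cluster the groups overlapped. Serpina3f had 33.9, 10.9 and 18.3 FPKM in the controls, 17.5 and 14.97 at day 4 and 14.6 and 38.3 at day 6, and Serpina3g had 104, 70.2 and 90.3 FPKM in the controls, 90.3 and 143 at day 4 and 97.4 and 134 at day 6. Saa3, an acute-phase apolipoprotein, had 67.7, 9.38 and 16.98 FPKM in the controls, 287 and 142 at day 4 and 16.2 and 54.8 at day 6, so the day 4 libraries alone stood apart.

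The serpins outside this family made up a separate list. The lists were chosen with earlier results of these data known, so a contrast with the SERPINA3 list is not a result. Of 11 tested, 0 lay above and 4 lay below all controls, with a median of -0.43, and only Serpinb9 was shared. Serpinb9, an intracellular inhibitor of granzyme B, had 17.4, 19.7 and 21.5 FPKM in the controls, 11.2 and 9.72 at day 4 and 8.62 and 15.1 at day 6, a difference of -0.78 ± 0.19 (adjusted p = 0.207). Serpinf1, which encodes the antiangiogenic pigment epithelium-derived factor, had 209.9, 215 and 238 FPKM in the controls, 153 and 83.3 at day 4 and 164 and 176 at day 6. Serpinb6a and Serping1, the inhibitor of complement C1, also lay below, by -0.28 ± 0.15 and -0.16 ± 0.21. The difference of Serping1 was smaller than its SE. None of the 4 passed.

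Interleukin-6 family cytokines signal through gp130 to STAT3, the factor that drives many acute-phase genes. Of the 7 cytokines tested, 1 rose, which was Il11, and 2 lay above all controls. Il11 had 1.17, 3.25 and 0.477 FPKM in the controls, 15.5 and 16.6 at day 4 and 11.2 and 16.03 at day 6, a difference of 2.71 ± 0.33 (adjusted p = 0.029). Il6 itself had 138, 920.4 and 227 FPKM in the controls, 278 and 145 at day 4 and 270.5 and 203 at day 6, with its highest value in a control, and Lif overlapped between the groups.

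Among 8 receptors of the family, 3 lay above and 1 below the controls, and 0 passed. Osmr, the oncostatin M receptor, had 28.7, 41.7 and 38.3 FPKM in the controls, 45.9 and 51.2 at day 4 and 49.8 and 43.6 at day 6, and Il31ra, its partner in the IL-31 receptor, had 0.7199, 1.33 and 0.519 FPKM in the controls, 6.25 and 1.44 at day 4 and 5.25 and 2.15 at day 6. Cntfr, the receptor for ciliary neurotrophic factor, was the one below, with 18.4, 13.7 and 11.5 FPKM in the controls, 7.48 and 6.28 at day 4 and 1.39 and 5.52 at day 6, a difference of -1.46 ± 0.41 (adjusted p = 0.239). The shared subunit Il6st (gp130) overlapped between the groups. Of 18 STAT3 targets and feedback genes, 4 lay above and 0 below, with a median of 0.06. Timp1, an inhibitor of matrix metalloproteinases, had 17.9, 22.9 and 25.03 FPKM in the controls, 42.9 and 46.2 at day 4 and 47.6 and 42.97 at day 6, a difference of 1.01 ± 0.15 (adjusted p = 0.0533, and 0.0463 with the set as a block). Its differences were 1.00 at day 4 and 1.02 at day 6. Il4ra, the IL-4 receptor chain, had 29.8, 38.1 and 32.8 FPKM in the controls, 59.3 and 77.6 at day 4 and 47.4 and 41.3 at day 6, and Osmr and Lrg1 were the other 2. Socs3, the feedback inhibitor of the pathway, had 664, 829.5 and 951 FPKM in the controls, 572 and 601 at day 4 and 699 and 696 at day 6 and did not separate the groups.

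Glucocorticoids act through the nuclear receptor Nr3c1, and Fkbp5, Tsc22d3 and Pdk4 are among their best known targets in many tissues. Of 19 glucocorticoid response genes tested, 1 rose, 6 lay above all controls (all shared) and 0 lay below. The median difference was 0.55, and 16 of the 19 differences were above 0. Against the controls of the same harvest set, the median was 0.98 in the day 4 set and 0.19 in the day 6 set. The gene that rose was Map3k6, a stress-activated kinase, with 3.06, 5.39 and 3.22 FPKM in the controls, 35.5 and 22.2 at day 4 and 29.7 and 18.2 at day 6 and a difference of 2.47 ± 0.26 (adjusted p = 0.0197).

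The other 5 did not pass. Fkbp5, a cochaperone that lowers the affinity of the glucocorticoid receptor, had 7.88, 18.5 and 15.1 FPKM in the controls, 64.2 and 84.5 at day 4 and 73.2 and 28.1 at day 6, a difference of 2.06 ± 0.40 (adjusted p = 0.136). Tsc22d3, which encodes the antiinflammatory leucine zipper GILZ, had 273, 156 and 158 FPKM in the controls, 549.8 and 428 at day 4 and 461 and 277 at day 6. The knockout nearest to a control for both genes was day 6 replicate 2, which for Tsc22d3 was just above the day 4 set control. Pdk4, a kinase that shuts pyruvate out of the mitochondrial citrate cycle, had 8.53, 8.67 and 8.59 FPKM in the controls, 42.8 and 20.9 at day 4 and 58.2 and 25.2 at day 6, and its 3 controls were close together. Angptl4, a secreted inhibitor of lipoprotein lipase, had 83.2, 114 and 80.4 FPKM in the controls, 298 and 202 at day 4 and 251 and 148 at day 6. Mt2, a metallothionein that binds zinc and copper, had 67.4, 294 and 137 FPKM in the controls, 977 and 402 at day 4 and 429 and 659 at day 6, with controls that differed widely among themselves.

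Other members of that list did not stand above the controls. Nr3c1 itself lay at 24.6, 23.97 and 22.8 FPKM in the controls, 14.7 and 14.6 at day 4 and 17.8 and 23.1 at day 6, and Dusp1, a phosphatase of MAP kinases, had 1908, 1865 and 1650.0 FPKM in the controls, 1932 and 1629 at day 4 and 2235 and 1876 at day 6, so its groups overlapped. Hsd11b1, the enzyme that regenerates active glucocorticoid inside cells, lay above all controls, with 414, 383 and 360.3 FPKM in the controls, 799 and 1496 at day 4 and 962 and 628 at day 6, a difference of 1.26 ± 0.29 (adjusted p = 0.193). It belongs to a list of 24 retinoid and steroid genes in which Cyp1b1, a cytochrome that oxidizes retinoids and steroids, rose and Aldh1a3, a retinaldehyde dehydrogenase, lay above. Cyp1b1 had 84.8, 96.3 and 70.7 FPKM in the controls, 371 and 417 at day 4 and 477 and 253 at day 6. The immediate early genes, which respond to cell handling, had 0 of 23 members above and 0 below.

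**Figure D3:**
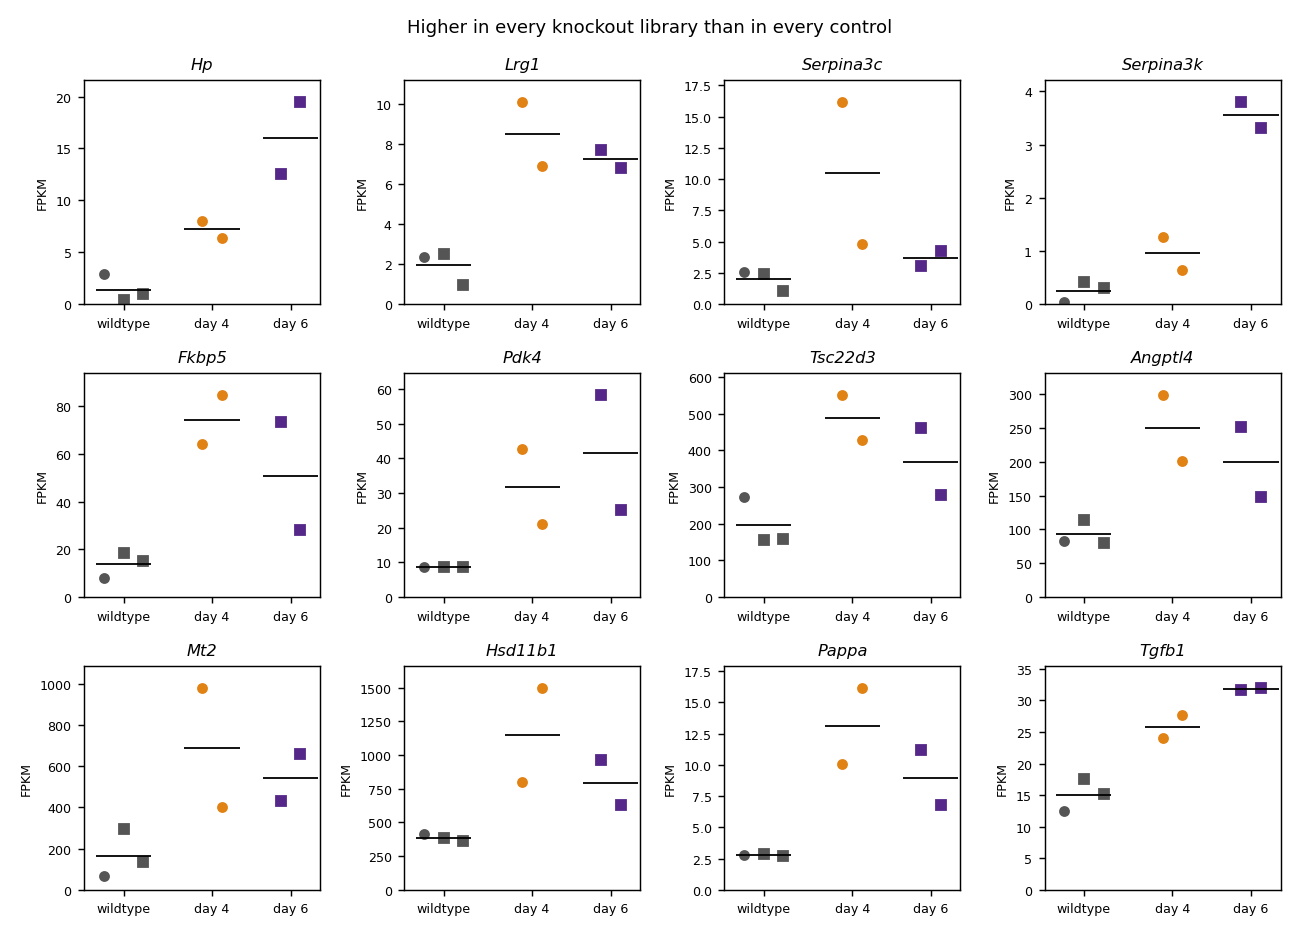
FPKM (vertical axes, from 0) of 12 genes with every knockout library above every control, in wildtype, day 4 and day 6 libraries (horizontal axes). Each point is 1 library, circles are the day 4 set and squares the day 6 set, and lines are group means, for example 13.8 FPKM for Fkbp5 in wildtype.

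Because members of 1 list stood above the controls together, the promoters of the shared genes were searched for short motifs. RefSeq promoters (GRCm38.p6, 250 bases before to 50 after the start) were at hand for 9188 genes tested, 126 of the 180 higher and 141 of the 177 lower shared genes. The 9 motifs searched on both strands were the full palindrome of the glucocorticoid receptor type (GNACA and TGTNC with 3 bases between them), TTCCNGGAA and the looser TTCNNNGAA that contains it (STAT type), TGANTCA (AP-1), an interferon-responsive element (GAAA and GAAA with 2 bases between), a loose NF-kB type site (GGG and CC with 5 bases between), CACGTG (E-box), CCAAT and TGCNCNCG (metal-responsive element). The glucocorticoid palindrome was in 33 of the 9188 promoters (0.359%), in 3 of the 126 (2.38%) and in 1 of the 141 (0.709%). The 3 are Serpina3n, Serpina3c and Map3k6, shown here with the match in capitals to let it be read in place. Of the 6 shared glucocorticoid response genes, Map3k6 alone was among them. The promoter of Tsc22d3 was searched and held no such match. Serpina3n lies at chr12:104406458-104406757 on the plus strand, Serpina3c at chr12:104153823-104154122 on the minus strand and Map3k6 at chr4:133240568-133240867 on the plus strand.
Serpina3n: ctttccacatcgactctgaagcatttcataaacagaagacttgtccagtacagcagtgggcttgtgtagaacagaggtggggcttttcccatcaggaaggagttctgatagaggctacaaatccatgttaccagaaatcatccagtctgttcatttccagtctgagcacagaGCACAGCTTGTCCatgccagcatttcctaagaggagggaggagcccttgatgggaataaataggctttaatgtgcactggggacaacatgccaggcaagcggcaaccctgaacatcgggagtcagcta
Serpina3c: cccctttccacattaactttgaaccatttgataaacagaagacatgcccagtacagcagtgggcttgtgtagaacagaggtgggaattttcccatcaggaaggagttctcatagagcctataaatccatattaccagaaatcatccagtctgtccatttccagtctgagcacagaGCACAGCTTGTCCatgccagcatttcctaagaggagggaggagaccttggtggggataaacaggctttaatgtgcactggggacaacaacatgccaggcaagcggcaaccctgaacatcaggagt
Map3k6: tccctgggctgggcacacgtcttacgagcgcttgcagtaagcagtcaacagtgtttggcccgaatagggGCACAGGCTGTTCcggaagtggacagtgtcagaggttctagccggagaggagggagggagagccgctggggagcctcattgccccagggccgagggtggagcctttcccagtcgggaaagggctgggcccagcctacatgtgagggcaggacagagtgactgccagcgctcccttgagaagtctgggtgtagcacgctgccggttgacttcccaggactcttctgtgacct

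The match began 78 bases before the start in Serpina3n, 75 in Serpina3c and 181 in Map3k6. In the first 2, which are paralogs, the matched letters were the same. Much of the sequence around them was alike as well, so these 2 are not separate cases. TGANTCA was in 6.07% of all promoters, 12.7% of the higher and 7.8% of the lower shared genes. Il11, at chr7:4778092-4778391 on the minus strand, held 1 match, 98 bases before its start. The interferon element was in 3.87% of all, 3.97% of the higher and 6.38% of the lower. Cxcl10, which leads the lower chemokines below, held 1 at chr5:92348840-92349139 on the minus strand, 213 bases before its start, and a TGANTCA besides.
Il11: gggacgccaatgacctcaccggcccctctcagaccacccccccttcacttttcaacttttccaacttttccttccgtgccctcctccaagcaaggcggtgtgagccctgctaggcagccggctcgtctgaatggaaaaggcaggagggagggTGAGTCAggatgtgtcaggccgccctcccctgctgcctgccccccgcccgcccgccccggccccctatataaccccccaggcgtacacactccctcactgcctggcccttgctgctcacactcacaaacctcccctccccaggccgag
Cxcl10: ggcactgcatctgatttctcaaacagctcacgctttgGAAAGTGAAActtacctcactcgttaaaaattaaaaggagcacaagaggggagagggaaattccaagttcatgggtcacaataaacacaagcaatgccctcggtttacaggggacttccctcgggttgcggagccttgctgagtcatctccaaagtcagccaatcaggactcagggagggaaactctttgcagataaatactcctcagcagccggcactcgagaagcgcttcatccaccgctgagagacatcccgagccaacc

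The other motifs were about as common, or less so, in the higher shared genes as in all promoters, with TTCNNNGAA in 8.73% against 8.32%, TTCCNGGAA in 0.794% against 1.57%, the NF-kB type site in 72.2% against 72.4%, CACGTG in 11.1% against 11.8%, CCAAT in 38.9% against 42.9% and TGCNCNCG in 23.8% against 24.5%. In the lower shared genes TTCNNNGAA was in 14.2%, more than in all promoters, and the other 5 were less common there than in all, with TTCCNGGAA in 0%, the NF-kB type site in 66%, CACGTG in 9.22%, CCAAT in 39.7% and TGCNCNCG in 18.4%. These are counts of letters in short windows, and no binding was measured.

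Insulin-like growth factors are held by binding proteins that the pappalysins cut. Of 12 members of this system, 5 lay above all controls and 0 below, 0 passed, and the median was 0.34, while at day 4 alone it was -0.19. Within the harvest sets it was 0.30 at day 4 and 0.48 at day 6. Igf1, the ligand, had 25.2, 21.9 and 30.5 FPKM in the controls, 41.8 and 93.8 at day 4 and 49.3 and 41.7 at day 6. Pappa, a protease of this kind, had controls in a narrow band, with 2.77, 2.85 and 2.69 FPKM in the controls, 10.1 and 16.1 at day 4 and 11.2 and 6.79 at day 6, a difference of 1.62 ± 0.24 (adjusted p = 0.0573, and 0.0494 with the set as a block). Its relative Pappa2 was scarce, with 0.229, 0.0899 and 0.317 FPKM in the controls, 1.03 and 1.03 at day 4 and 1.96 and 1.64 at day 6. Igfbp4, a binding protein that Pappa cuts, had 828, 520.5 and 771 FPKM in the controls, 1625 and 1177 at day 4 and 883 and 1025 at day 6, and Igfbp5 had 24.4, 42.3 and 65.9 FPKM in the controls, 66.7 and 289 at day 4 and 146 and 91.2 at day 6. For Igfbp5 the day 4 knockout replicate 1 stood only just above the second day 6 set control. Igfbp3, the most abundant of the binding proteins on day 6, overlapped between the groups.

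In the TGF-beta pathway, a ligand and both receptor chains stood above the controls and another ligand and a classical target below them. Of 21 members, 3 lay above, 2 below, and 0 passed. Tgfb1 had 12.4, 17.6 and 15.2 FPKM in the controls, 23.98 and 27.6 at day 4 and 31.6 and 31.9 at day 6, a difference of 0.89 ± 0.16 (adjusted p = 0.117, and 0.0463 with the set as a block). Tgfbr2 had 224, 142 and 219 FPKM in the controls, 285 and 534 at day 4 and 462 and 290.0 at day 6, and Tgfbr1 had 21.7, 17.1 and 17.4 FPKM in the controls, 24.1 and 53.9 at day 4 and 36.3 and 30.8 at day 6. Both receptor genes were highest in day 4 knockout replicate 2. Tgfb3 had 92.2, 70.9 and 67.6 FPKM in the controls, 32.3 and 25.9 at day 4 and 41.4 and 67.3 at day 6, with day 6 replicate 2 next to the lowest control. Tgfbi, a secreted matrix protein named for its induction by TGF-beta, had 154, 297 and 269 FPKM in the controls, 55.04 and 54.99 at day 4 and 132 and 121 at day 6, a difference of -1.46 ± 0.38 (adjusted p = 0.218). With the set as a block it was among the 5 genes that fell (adjusted p = 0.0283), beside Stbd1, Klhl13, Wfdc1 and Sln.

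Notch targets Hes1 and Heyl, both transcriptional repressors, were the 2 of 11 Notch genes above all controls, and 0 were below. Hes1 had 472, 391 and 549 FPKM in the controls, 923 and 691 at day 4 and 1141 and 783 at day 6. Heyl had 3.48, 2.54 and 2.702 FPKM in the controls, 6.800 and 10.2 at day 4 and 7.77 and 6.98 at day 6, a difference of 1.18 ± 0.17 (adjusted p = 0.054, and 0.0494 with the set as a block). BMP receptors and targets had 1 of 15 above and 4 below. Id1, a repressor induced by BMP signals, had 36.2, 38.4 and 47.3 FPKM in the controls, 57.3 and 71.7 at day 4 and 60.3 and 70.8 at day 6, whereas its relative Id2 had 69.1, 60.8 and 76.2 FPKM in the controls, 50.5 and 30.8 at day 4 and 24.6 and 50.1 at day 6. Id4 lay below as well, by -0.61 ± 0.19. The list of BMP ligands had 2 of 11 members above all controls (Inha and Inhba) and 2 below. The 2 below were Bmp2 and Bmp4, by -0.53 ± 0.19 and -0.39 ± 0.15. Extracellular antagonists had 2 of 12 above and 1 below. Bmper and Chrdl2 lay above, by 0.99 ± 0.16 and 1.48 ± 0.25, and Twsg1 below, by -0.55 ± 0.18. Chrdl2 was scarce, with 0.364, 0 and 0.138 FPKM in the controls. Bmper had 5.42, 7.17 and 7.34 FPKM in the controls, 12.4 and 14.4 at day 4 and 16.7 and 13.2 at day 6 and passed only with the set as a block (adjusted p = 0.0469).

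Among WNT genes, a few members lay above or below all controls, where the shares of all genes were 5.32% and 6.58%. Of 9 ligands and R-spondins 0 lay above and 2 below, of 9 antagonists and modulators 2 above and 1 below, and of 15 receptors and targets 1 above and 1 below. Wnt2b had 22.4, 26.9 and 38.2 FPKM in the controls, 10.5 and 11.3 at day 4 and 16.1 and 19.2 at day 6, a difference of -0.99 ± 0.25 (adjusted p = 0.216), which was -0.98 in the day 4 set and -0.83 in the day 6 set. Wnt5b, the other ligand below, differed by -0.33 ± 0.17. Frzb, a secreted frizzled-related antagonist, had 28.2, 15.8 and 22.1 FPKM in the controls, 48.5 and 118 at day 4 and 35.2 and 64.3 at day 6, and Dkk2, another antagonist, had 48.1, 64.5 and 39.4 FPKM in the controls, 31.2 and 21.5 at day 4 and 27.8 and 38.4 at day 6. Ror1, a receptor of WNT5A, had 13.9, 15.7 and 14.9 FPKM in the controls, 29.5 and 29.8 at day 4 and 36.3 and 23.5 at day 6, a difference of 0.94 ± 0.16 (adjusted p = 0.106). Axin2, a direct target of beta-catenin, was scarce and overlapped, with 0.676, 0.794 and 2.39 FPKM in the controls, 0.3597 and 0.366 at day 4 and 0.801 and 1.06 at day 6. None of the WNT genes passed. The Hedgehog list had 0 of 13 members above and 0 below.

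Of 29 lipid handling genes, 2 rose (Apod and Pla1a), 8 lay above all controls and 2 below, with a median of 0.05. Acsl4, which activates arachidonic acid for phospholipids, had 12.3, 13.97 and 13.9 FPKM in the controls, 24.04 and 37.5 at day 4 and 35.05 and 34.03 at day 6, a difference of 1.21 ± 0.17 (adjusted p = 0.0508). Plin2, which coats lipid droplets, had 45.9, 40.4 and 54.2 FPKM in the controls, 101 and 181 at day 4 and 92.8 and 90.2 at day 6, with day 4 replicate 2 the highest. Fabp4, a fatty acid carrier, had 6.68, 5.53 and 3.16 FPKM in the controls, 25.8 and 16.5 at day 4 and 14.5 and 13.5 at day 6, a difference of 1.60 ± 0.27 (adjusted p = 0.106). Scd1, the desaturase, and Cd36, a fatty acid receptor, lay above by 0.94 ± 0.22 and 0.56 ± 0.16. Enpp2, which makes lysophosphatidic acid, lay below with 42.04, 49.4 and 51.6 FPKM in the controls, 33.1 and 26.8 at day 4 and 28.5 and 34.1 at day 6. The 23 cholesterol synthesis genes had 0 above, 2 below (Sc5d and Dhcr7) and 19 differences below 0, with a median of -0.3.

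The list of matrix proteases and their inhibitors had 7 of 31 members above all controls and 3 below, 0 passed, and the median was -0.05. The inhibitor Timp1, described with the STAT3 targets, was 1 of the 7. Mmp3, stromelysin 1, had 162, 204 and 178 FPKM in the controls, 418 and 531 at day 4 and 487 and 312 at day 6, a difference of 1.24 ± 0.22 (adjusted p = 0.109). Mmp8, neutrophil collagenase, had 0.779, 0.0629 and 0.285 FPKM in the controls, 4.62 and 19.4 at day 4 and 3.13 and 4.31 at day 6, with its highest value in day 4 replicate 2. Of 11 neutrophil marker genes, 3 passed the filter, and the 1 of them above all controls was Mmp8 itself. The aggrecanases Adamts4 and Adamts15 had 123, 187 and 141 FPKM in the controls, 236 and 304 at day 4 and 229 and 200.3 at day 6 and 2.45, 1.86 and 4.06 FPKM in the controls, 23.99 and 10.6 at day 4 and 7.07 and 4.62 at day 6, respectively. Htra1, a secreted serine protease, was lower, with 133, 268 and 231 FPKM in the controls, 81.7 and 40.9 at day 4 and 57.5 and 107 at day 6, a difference of -1.57 ± 0.35 (adjusted p = 0.193), or -1.18 in the day 4 set and -1.65 in the day 6 set. Lox, which crosslinks collagen and elastin, had 123, 69.9 and 57.97 FPKM in the controls, 173 and 220.2 at day 4 and 315 and 194 at day 6, a difference of 1.46 ± 0.29 (adjusted p = 0.156).

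Among structural matrix genes, proteoglycans and glycoproteins had more members below than above the controls, and unequally between the days. Over all genes, 5.32% lay above and 6.58% below. Of 16 fibrillar and associated collagens, 0 lay above and 1 below (Col6a5). Col1a1, Col1a2, Col3a1 and Dcn were listed at 0 in the day 4 set control, with means of 1641 to 9821 FPKM over the other libraries. Col3a1 was also at 0 in day 6 knockout replicate 2, so differences of these genes are given no reading. Of 43 proteoglycans and glycoproteins, 1 lay above and 8 below all controls, 0 passed, and the median was -0.31, with -0.69 at day 4 and 0.10 at day 6. Of 9 adventitial fibroblast markers tested, 0 lay above and 1 below (Sema3c), with a median of -0.91 at day 4 and 0.02 at day 6, and the whole list summed to 1353 to 1784 FPKM in the controls and 662 to 1407 FPKM in the knockouts. Their part in the matrix values was not tested. The 8 glycoproteins below included 2 fibulins of elastic fibres. Fbln5 had 84.4, 93.05 and 87.3 FPKM in the controls, 27.3 and 36.9 at day 4 and 32.8 and 66.1 at day 6, a difference of -1.18 ± 0.27 (adjusted p = 0.193), and Fbln7 had 32.8, 60.05 and 72.1 FPKM in the controls, 9.51 and 24.6 at day 4 and 17.6 and 26.8 at day 6. Aspn, a small leucine-rich proteoglycan, had 371, 401 and 298 FPKM in the controls, 134 and 131 at day 4 and 164 and 281 at day 6, and Mfap4, a microfibril protein, had 1334, 1002 and 1135 FPKM in the controls, 641 and 607 at day 4 and 413 and 929 at day 6. The 1 above was Thbs1, a matricellular glycoprotein that activates latent TGF-beta, with 194, 247 and 159 FPKM in the controls, 306 and 375 at day 4 and 572 and 379 at day 6. Basement membrane genes had 3 of 18 above and 0 below. Col4a1, the main collagen IV chain, had 289.8, 267 and 419.7 FPKM in the controls, 434 and 486 at day 4 and 818 and 609.8 at day 6, Col4a2 differed by 0.73 ± 0.24 and the laminin chain Lama1 by 0.998 ± 0.32.

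Of 14 integrins tested, 2 lay above all controls (Itga5 and Itga1) and 1 below (Itga8), and 0 passed. Over all genes, the shares were 5.32% above and 6.58% below. Itga1 differed by 0.50 ± 0.14. Itga5, the fibronectin receptor chain, had 13.98, 23.3 and 15.3 FPKM in the controls, 33.5 and 57.6 at day 4 and 67.6 and 45.1 at day 6, a difference of 1.47 ± 0.26 (adjusted p = 0.114). Itga8, which binds nephronectin and other RGD proteins, led the lower genes, with 3.15, 9.48 and 5.88 FPKM in the controls, 0.915 and 1.35 at day 4 and 0.892 and 2.12 at day 6, a difference of -1.56 ± 0.32 (adjusted p = 0.157). Within the sets the difference of Itga8 was -0.97 in the day 4 set and -1.80 in the day 6 set. The kinin receptors Bdkrb1 and Bdkrb2 both lay above the controls. Bdkrb1 had 49.9, 142 and 38.8 FPKM in the controls, 171 and 193 at day 4 and 281 and 198 at day 6, and Bdkrb2 had 5.61, 5.65 and 8.84 FPKM in the controls, 11.6 and 29.2 at day 4 and 14.1 and 16.02 at day 6. Rgs5, a regulator of G-protein signalling that also marks pericytes, was lower, with 147, 139 and 136 FPKM in the controls, 63.7 and 37.8 at day 4 and 28.3 and 106 at day 6. Mural and smooth muscle markers summed to 223 to 252 FPKM in the controls and 134 to 217 FPKM in the knockouts. Rgs5 is on that list and makes up much of the sums, so they are no separate measure of such cells. Of 10 markers tested, 1 lay above (Kcnj8) and 1 below (Rgs5), 7 differences were above 0, and the median was 0.19. The part of such cells in the Rgs5 result was not tested.

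The lower shared genes had no gene that passed. After Itga8, the rank by the smaller day difference gave Cxcl10, Aard, AW112010, D630033O11Rik, Htra1, Rgs5, Gamt, Hcar1, Fbln7, Cpxm2, Ntf3, Mdk, Neurl3 and P2rx6. Gamt, the last enzyme of creatine synthesis, had 6.54, 8.68 and 15.97 FPKM in the controls, 2.703 and 2.53 at day 4 and 2.19 and 4.74 at day 6, a difference of -1.45 ± 0.30 (adjusted p = 0.167). Hcar1, the lactate receptor, had 9.85, 10.7 and 13.3 FPKM in the controls, 2.77 and 5.97 at day 4 and 1.53 and 7.22 at day 6. P2rx6, a subunit of ATP-gated channels, had 10.5, 12.6 and 13.8 FPKM in the controls, 2.58 and 2.98 at day 4 and 3.32 and 7.94 at day 6, with day 6 replicate 2 nearest the controls. Stbd1, which tethers glycogen to membranes, lay below by -1.38 ± 0.27 (adjusted p = 0.139).

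Neurotrophic factors keep enteric neurons and their axons alive. Of 13 genes of this list, 4 lay below all controls (all shared) and 1 above, 0 passed, and the median was -0.53. Mdk, the heparin-binding growth factor midkine, had 78.9, 101 and 127 FPKM in the controls, 38.8 and 23.8 at day 4 and 32.1 and 63.3 at day 6, a difference of -1.42 ± 0.31 (adjusted p = 0.185). Ntf3, which encodes neurotrophin 3, had 20.4, 34.3 and 41.2 FPKM in the controls, 9.61 and 17.99 at day 4 and 4.28 and 17.01 at day 6. Cntfr, described with the receptors above, also lay below. Gfra1, a GDNF receptor, was the one above, at 0.9 FPKM or more in the knockouts. Among 21 semaphorins and their receptors, 4 lay below and 1 above, and Sema3b and Sema3c differed mainly on day 4, with -1.69 at day 4 and -0.47 at day 6 for the first and -1.49 at day 4 and -0.39 at day 6 for the second. The list of netrins, slits and ephrins had 1 of 22 members above all controls and 1 below (Ephb6), 0 passed, and the median was -0.30. The 1 above was Slit3, a repulsive guidance ligand, with 91.01, 117 and 109.7 FPKM in the controls, 168 and 264 at day 4 and 343 and 192 at day 6.

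Angiopoietin-like genes were few but spread widely. Of 5 tested, 3 lay below and 1 above, and the median was -0.86. Angptl1 had 86.00, 105 and 81.7 FPKM in the controls, 17.3 and 22.7 at day 4 and 37.5 and 63.9 at day 6, and Angptl2 had 180.4, 149.7 and 179.7 FPKM in the controls, 33.4 and 70.1 at day 4 and 118 and 135 at day 6. Angptl6, at 0.9 to 2.1 FPKM in the controls, had 0.21 to 0.78 FPKM in the knockouts. Angptl4, described with the glucocorticoid genes, was the 1 above.

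**Figure D4:**
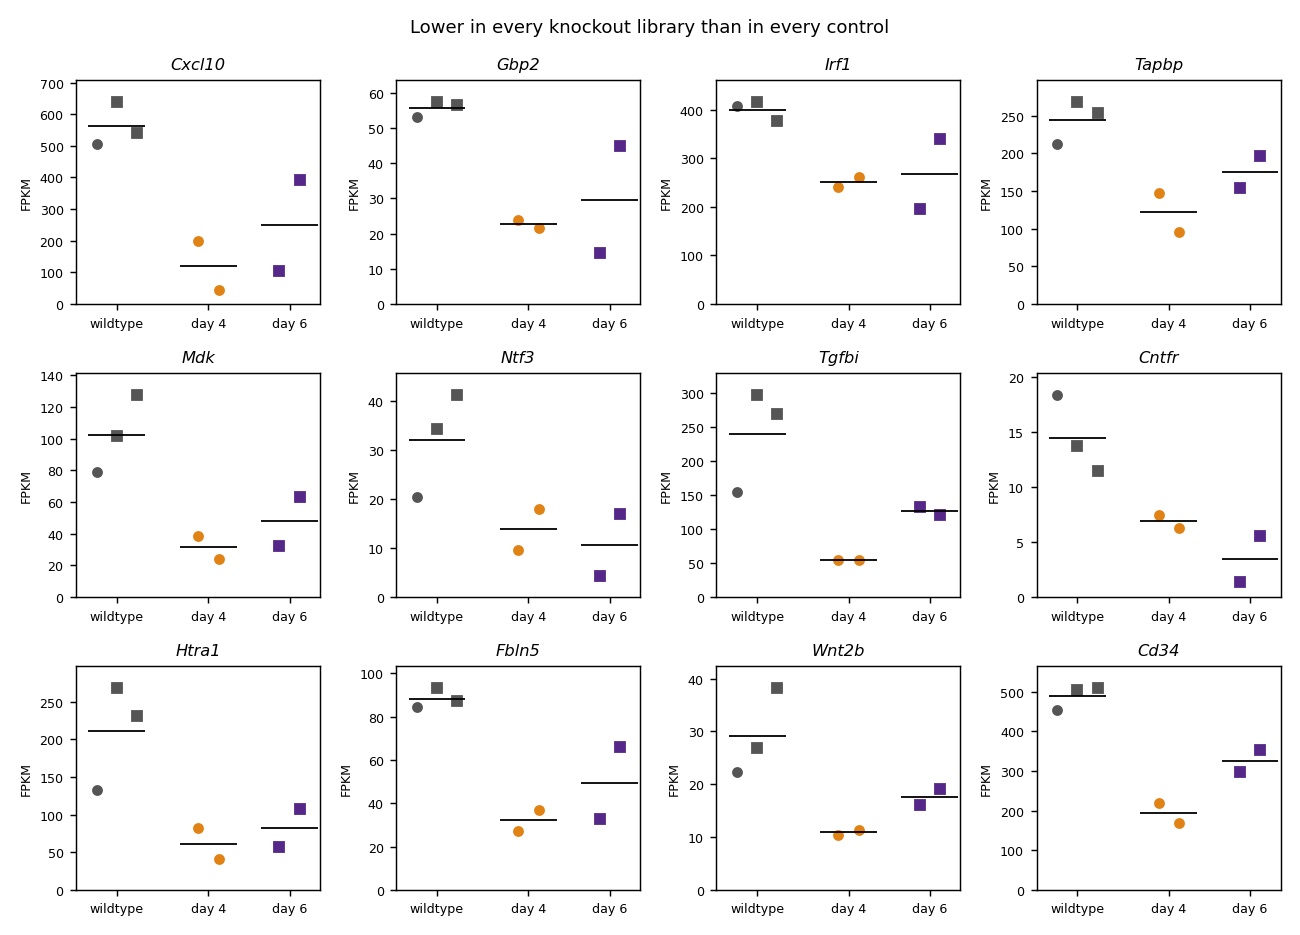
FPKM (vertical axes, from 0) of 12 genes with every knockout library below every control, in wildtype, day 4 and day 6 libraries (horizontal axes). Each point is 1 library, circles are the day 4 set and squares the day 6 set, lines are group means, and in most panels the day 6 point nearest the controls is replicate 2.

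Single genes of interferon response and antigen presentation lay below the controls, at shares of their lists near the 6.58% of all genes. Irf1, a transcription factor induced by interferon gamma, had 407, 415 and 376 FPKM in the controls, 240.2 and 260.4 at day 4 and 195 and 339 at day 6, a difference of -0.65 ± 0.21 (adjusted p = 0.276). Gbp2, a guanylate-binding GTPase, had 53.1, 57.2 and 56.5 FPKM in the controls, 23.97 and 21.7 at day 4 and 14.6 and 44.7 at day 6, a difference of -1.17 ± 0.31 (adjusted p = 0.225). Of 11 tested genes named Gbp, 3 lay below all controls (27.3%) and 0 above, with a median of -0.9. Gbp5 had 4.55, 5.75 and 3.801 FPKM in the controls, 2.502 and 1.76 at day 4 and 0.5605 and 2.98 at day 6, and Gbp8 had 11.1, 9.44 and 12.7 FPKM in the controls, 4.74 and 4.39 at day 4 and 2.47 and 9.15 at day 6. Gbp6 had 33.9, 15.4 and 22.3 FPKM in the controls, 8.38 and 6.32 at day 4 and 2.01 and 23.8 at day 6, so day 6 replicate 2 lay among the controls, and the same held for Gbp3 and Gbp4.

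The list of 30 interferon-stimulated genes had 2 members below (Gbp2 and Ddx58), 0 above, and 0 passed. Its median was -0.25 over both days, but 0.04 at day 4 and -0.46 at day 6, so the days did not share a direction. MHC class I presentation had 1 of 17 below, 0 above, 15 differences below 0 and a median of -0.41, with -0.38 at day 4 and -0.43 at day 6. The 1 was Tapbp, which loads peptide on class I molecules, with 212, 268 and 253 FPKM in the controls, 148 and 95.8 at day 4 and 154 and 197 at day 6. B2m, the light chain of class I, overlapped between the groups.

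NF-kB targets had 3 of 21 below and 0 above, 18 differences below 0 and a median of -0.17. Vcam1, an adhesion molecule for leukocytes, had 85.4, 154 and 114 FPKM in the controls, 70.3 and 79.6 at day 4 and 55.3 and 70.2 at day 6, and Relb, a subunit of the factor, had 17.5, 20.1 and 21.5 FPKM in the controls, 13.03 and 13.7 at day 4 and 12.9 and 17.2 at day 6. Irf1 was the third. Chemokines had 2 of 23 below and 1 above, shares near the 6.58% and 5.32% of all genes. Cxcl10, an interferon-induced attractant of T cells, had 506, 637 and 542 FPKM in the controls, 198 and 45.2 at day 4 and 105 and 393 at day 6, a difference of -1.999 ± 0.61 (adjusted p = 0.27). Its knockout values differed widely among themselves, and day 6 replicate 2 was nearest the controls. Cxcl12, which holds leukocytes and stem cells through CXCR4, had 838, 1061 and 1015 FPKM in the controls, 705 and 489.5 at day 4 and 572 and 715 at day 6. The 1 above was Cxcl13, an attractant of B cells, with differences of 3.21 at day 4 and 1.04 at day 6. In the marker lists of immune cells, 0 of 8 pan-immune and 0 of 13 macrophage and dendritic genes lay wholly above or below the controls. For T and NK cell genes it was 0 of 7. Of 9 B and plasma cell markers, 2 lay above (Xbp1 and Sdc1) and 0 below, and the median was -0.31. Of 3 neutrophil markers tested, Mmp8 alone lay above.

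The last lists held genes of growth and of stress. Of 24 ribosome biogenesis genes, 7 lay above, 1 below (Nop58), 20 differences were above 0 and the median was 0.25, with 0 passing. Rrp12, a ribosome export factor, had 1.57, 0.9803 and 1.37 FPKM in the controls, 2.29 and 2.92 at day 4 and 3.13 and 2.44 at day 6, and Bop1, an assembly factor of the large subunit, had 13.04, 9.697 and 14.7 FPKM in the controls, 16.7 and 22.9 at day 4 and 18.8 and 16.7 at day 6. The steps were small next to those of the secreted genes above. Metal and NRF2 response genes had 7 of 22 above and 1 below. Their median was 0.15, or 0.32 within the day 4 set and 0.009 within the day 6 set. Mt2, described with the glucocorticoid genes, was 1 of the 7. Slc39a14, a zinc and iron importer, had 10.7, 8.06 and 8.32 FPKM in the controls, 18.8 and 13.7 at day 4 and 16.7 and 19.9 at day 6, a difference of 0.86 ± 0.17 (adjusted p = 0.136). Slc2a1, the glucose transporter GLUT1, had 7.85, 11.3 and 6.33 FPKM in the controls, 21.1 and 17.1 at day 4 and 15.1 and 12.9 at day 6, and was 1 of 4 above among 25 hypoxia and glycolysis genes, with 0 below.

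Heat shock proteins did not move together. Of 23, 1 rose, 4 lay above, 4 below, and 18 differences were below 0. Hspb7, a small heat shock protein, had 0.405, 0.327 and 0.534 FPKM in the controls, 3.46 and 3.38 at day 4 and 8.499 and 4.78 at day 6, a difference of 2.01 ± 0.27 (adjusted p = 0.049), and Hspb1 had 33.3, 40.3 and 38.4 FPKM in the controls, 127 and 42.1 at day 4 and 106 and 73.2 at day 6. Their relative Cryab lay below, with 61.1, 59.8 and 59.6 FPKM in the controls, 25.9 and 22.3 at day 4 and 39.6 and 44.8 at day 6. The inducible HSP70 genes Hspa1a and Hspa1b are near-identical copies and lay below by -0.64 ± 0.25 and -0.61 ± 0.26.

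**Figure D5:**
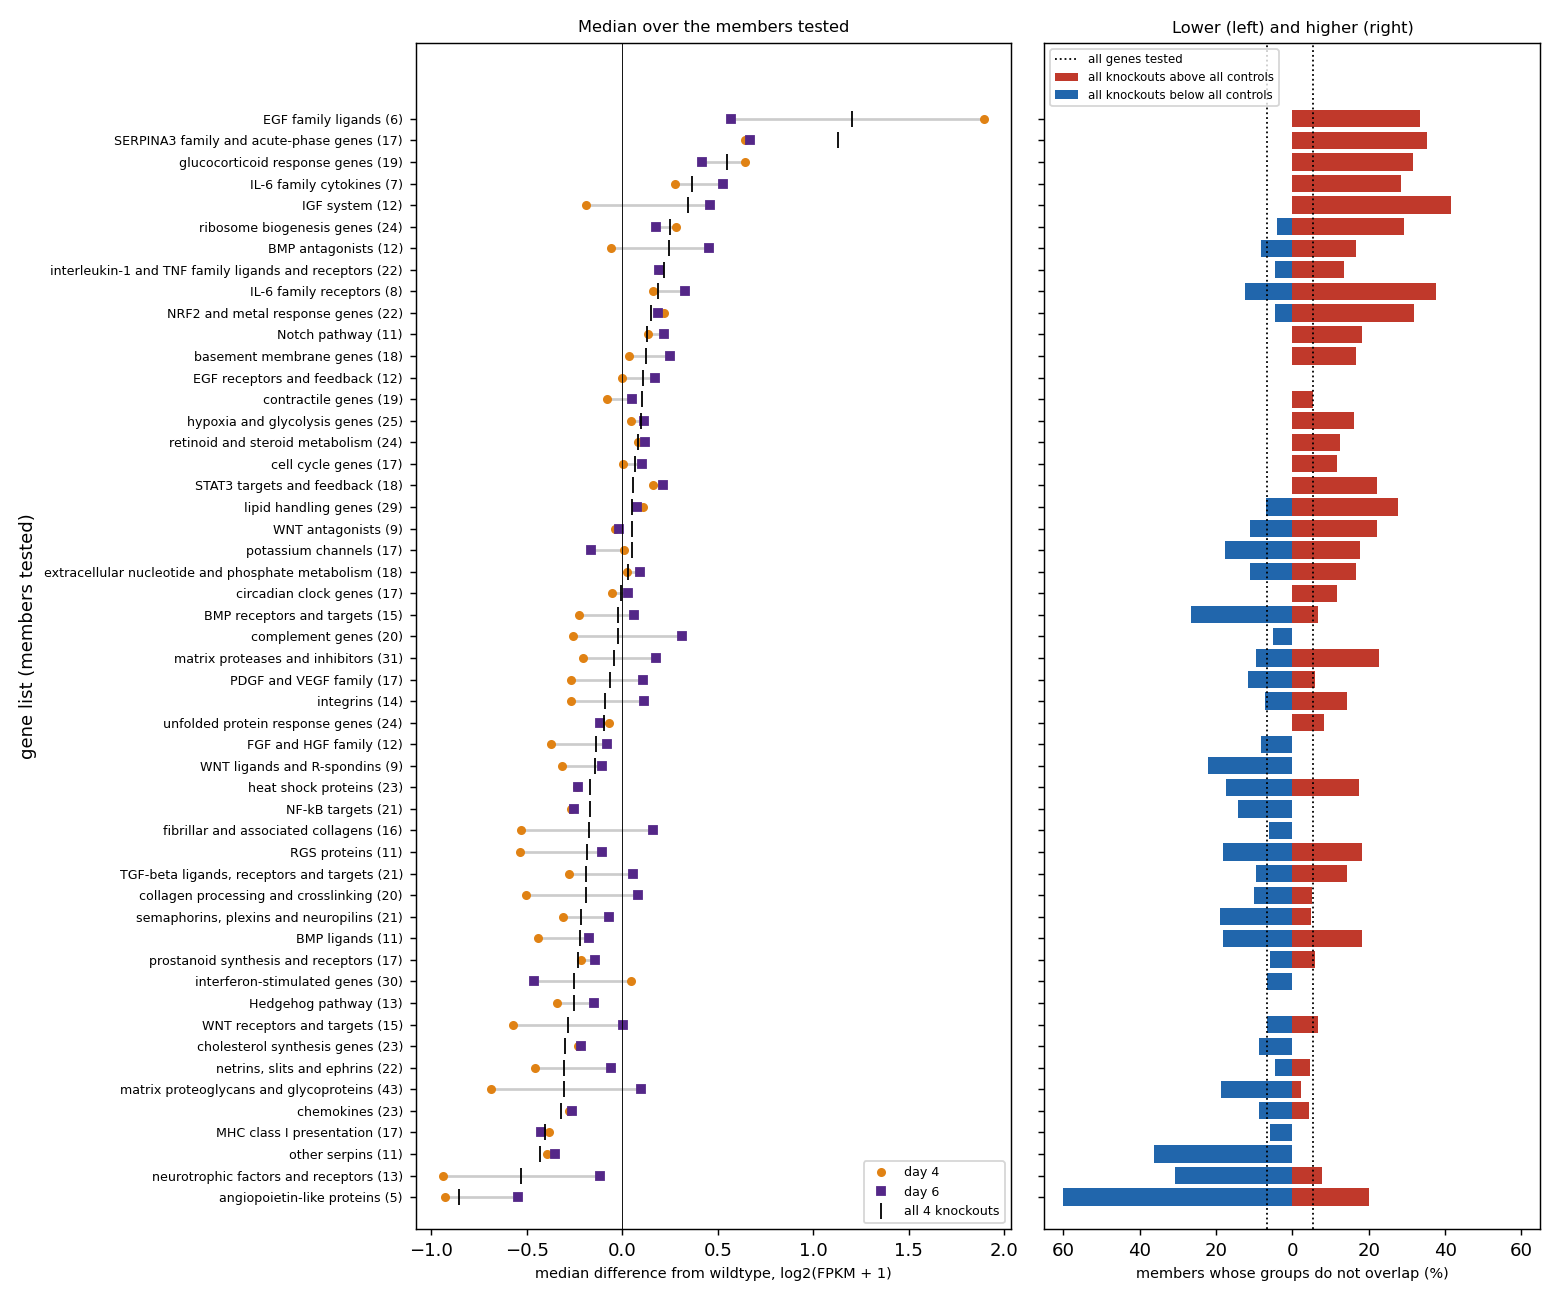
Left, median difference in log2(FPKM + 1) from wildtype over the tested members of each list at day 4 (circles), at day 6 (squares) and in all 4 knockouts (ticks). Right, percent of members with all knockouts above (red) or below (blue) all controls, with the 5.32% and 6.58% of all genes as dotted lines, and lists near the top have red bars past the line and lists near the foot blue ones.

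Gene families defined by symbol alone, 180 of them with at least 8 tested members, repeated part of this. The shares given are the extremes of many small families, and over all genes 5.32% lay above and 6.58% below. The largest shares above all controls were 50% of the Serpina genes (4 of 8), 37.5% of Adam (3 of 8), 30% of Utp (3 of 10) and 25% each of Itga and Mcm (2 of 8). The Utp genes encode processing factors of small-subunit ribosomal RNA, and Utp4 had 8.94, 8.59 and 8.36 FPKM in the controls, 11.8 and 17.02 at day 4 and 9.43 and 12.9 at day 6. Mcm3 and Mcm6, subunits of the replicative helicase, lay above by 0.32 ± 0.13 and 0.35 ± 0.13. Adam9, a membrane-bound sheddase, had 39.1, 39.6 and 35.5 FPKM in the controls, 57.1 and 66.4 at day 4 and 65.5 and 52.2 at day 6. The largest shares below were 30.8% of Fkbp (4 of 13) and the 27.3% of Gbp. The Fkbp genes below were the prolyl isomerases Fkbp2, Fkbp7 and Fkbp9 of the endoplasmic reticulum and Fkbp1b, so that Fkbp5 was the 1 member on the other side. Fkbp9 had 169.8, 189 and 213 FPKM in the controls, 122 and 109 at day 4 and 144 and 144 at day 6. Next came Kif, Chst and Clec with 25% each. Chst7, a sulfotransferase of chondroitin, had 16.4, 15.7 and 20.4 FPKM in the controls, 6.197 and 6.98 at day 4 and 6.63 and 13.4 at day 6, and Clec11a, a secreted stem cell growth factor of bone, had 25.98, 27.96 and 39.6 FPKM in the controls, 12.2 and 4.07 at day 4 and 11.2 and 21.5 at day 6. No family was tested.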

How the data were processed

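Poly-A RNA of 7 libraries of sorted Pdgfra-low CD81+ cells was sequenced on an Illumina platform, per the labels. The authors deposited 1 table of FPKM values with a column per library. The submitters' processing notes name kallisto 0.46.1, DESeq2 1.40.1 and the mm9 build, and the step that made the FPKM values is not given in the sources used here. Columns were grouped by their names. The name of 1 knockout column gives no day, and control columns cannot be tied to numbered control titles. Column names also hold the words GFP Low, which no label explains. Of 25493 entries, 293 symbols were repeated, and for each the entry of highest mean entered.

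Tested genes reached 1 FPKM in 2 or more libraries and were analysed as log2(FPKM + 1), so differences of genes near 1 FPKM are understated. The 4 knockout and 3 control libraries were each given 1 mean in limma 3.58.1 (R 4.3.3), with an intensity trend, two-sided tests and Benjamini-Hochberg adjustment over 11735 genes. A second fit with 1 mean per day tested day 6 against day 4, and another held the harvest set as a block. The genes named are, among those whose groups do not overlap, the 15 per direction with the largest shift shared by both days (mean of at least 3 FPKM), up to 4 per list and direction, up to 4 per family, and Apc, Pdgfra, Cd81, Grem1, Rspo3, Wnt2b and Gapdh. A few members beside them were named after their values were seen, to show the rest of a family or pathway, and some genes that the rule named are not reported here. The comparison, the members and the lists were chosen with earlier results of these data known. Alternatives were other pseudocounts, filters, scalings and weights, zeros of abundant genes set missing, and leaving out each library.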

Additional observations from a re-analysis of the deposited data

Results flagged for a closer look

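In 7 of the 165 genes named, 1 knockout library stood far from the other 3, where chance gives about 1 in 20. In day 4 knockout replicate 2, Pla1a was 33.0 FPKM (12.8 to 13.5 FPKM in the other 3), Plin2 181.3 FPKM (90.2 to 100.9 FPKM) and 6030408B16Rik 1.576 FPKM (3.08 to 3.23 FPKM). In day 4 knockout replicate 1, Serpina3m was 74.28 FPKM (30.8 to 34.8 FPKM) and Spp1 1.638 FPKM (3.32 to 3.41 FPKM). Serping1 was 2121 FPKM in day 6 knockout replicate 1 (1938 to 1966 FPKM), and Chst7 was 13.38 FPKM in day 6 knockout replicate 2 (6.20 to 6.98 FPKM).

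For 3 genes both day 4 libraries lay on 1 side of all controls and both day 6 libraries on the other. Day 6 minus day 4 was -1.75 ± 0.40 (SE, n = 2 and 2) for Gapdh (limma, adjusted p = 0.271), 1.6 ± 0.32 for Grem1 (adjusted p = 0.257) and 0.646 ± 0.18 for Il6st (adjusted p = 0.3). None of these passed. The Gapdh values followed the harvest set in the controls as well, so set and day cannot be told apart for it.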

How the results depend on the processing

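Each group has few libraries, and no file gives depth. The most frequent ratio of low values, held by 29 to 147 genes a library, put the depth of the day 4 knockouts at 0.747 and 0.824 of their set control and of both day 6 knockouts at 1.602 of the first day 6 set control, a rough estimate. No paired analysis was possible because the control columns cannot be tied to numbered control titles. The day in the column headers, read as the harvest set, served as the block. With a pseudocount of 5, 7 genes rose, 97 met the higher and 73 the lower rule for both days. Without a filter on low values 0 rose by limma (1865 genes had an unadjusted p under 0.05). With the harvest set as a block, 28 rose and 5 fell, and with array weights 21 rose. Leaving out 1 library gave 0 to 17 that rose, 0 to 13 that fell, 750 to 1126 genes above all controls, 861 to 1749 below, and 62 to 426 in the lower set of both days. The 13 genes kept their direction in each of these settings. Of these, 0 passed without the second day 6 set control, where 932 genes had an unadjusted p under 0.05. A pseudocount of 0.1, a stricter filter, quantile or median scaling, both days averaged and zeros set missing moved none of these counts by over 1.5 times where they could be applied.

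A sign turned only for genes whose groups overlapped. With the set as a block the log2 difference was -0.00202 for Gapdh, 0.0413 for Il6st and 0.0319 for Rspo3, and with array weights -0.115, 0.0982 and 0.0731. With quantile scaling it was 0.0203 for Il6st and 0.0313 for Rspo3, with median scaling 0.018 and 0.0321, and with a pseudocount of 5 it was 0.00213 for Rspo3. Leaving out 1 library gave -0.0401 to 0.0975 for Apc, -0.1 to 0.649 for Gapdh, -0.187 to 0.578 for Grem1, -1.07 to 0.293 for Il6, -0.167 to 0.116 for Il6st, -0.0759 to 0.169 for Rspo3 and -0.332 to 0.444 for Serpina3f. The causes were not tested. Of the other values, 90 lost the threshold and 49 gained it in a setting, over 165 genes and 2786 values.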
